A study of Mus musculus with 4 samples.

Results

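The 40 genes described here are p53 itself (Trp53), genes that p53 is known to switch on, the Bcl2 family, and the caspases with their activator and inhibitor. They were found by gene symbol in the annotation of a mouse expression array. Of the 40 genes, 38 had at least 1 target (a set of probes for 1 transcript), and together they had 84 of the 44170 targets on the array. Bbc3, which encodes the death-promoting protein Puma, and Zmat3, a p53 target that encodes an RNA-binding protein, had no target under those symbols and have no value here. The genes were set in 3 groups: p53 and its targets (22 measured of 24), the other Bcl2 family genes (11 of 11), and the caspases and apoptosome genes (5 of 5).

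By the labels, the cells were Neuro2a (N2a), a line grown from a mouse neuroblastoma, a tumour of the sympathetic nervous system. They were transfected with a scramble siRNA, the control, or with an siRNA that targets Men1, which encodes the nuclear scaffold protein menin, and total RNA was hybridised to 4 single-colour arrays, 2 per group. By the labels, all arrays thus come from 1 tumour line that had been transfected with an siRNA, and neither the siRNA sequences, the dose nor the time after transfection is given in the sources used here. The labels do not say whether replicates were separate cultures, so every p-value reflects no more than the differences among these 4 arrays, whose source may be technical.

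p53 is a transcription factor that is held at a low level by the ubiquitin ligase Mdm2 and accumulates when DNA is damaged or a cell is stressed. It then switches on genes that halt the cell cycle, repair DNA, or promote death through receptors at the cell surface and through mitochondria. At mitochondria, survival proteins of the Bcl2 family restrain the pore-forming effectors Bax and Bak1, BH3-only proteins release that restraint, and the cytochrome c that leaks out lets Apaf1 assemble the apoptosome, which activates caspase-9.

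Array medians lay between 145.9 and 151.2 intensity units, and the arrays' random control probes read 42.8 to 52.3. An intensity of 100 was taken as well above background, and between 40.2% and 41.0% of targets lay under it on each array. Men1, the targeted gene, read 6985 and 6222 on the control arrays and 2764 and 4109 after Men1 siRNA. Its fold was 0.511, on the log2 scale -0.97 ± 0.35 (moderated SE from limma, n = 2 in each group), an unadjusted p of 0.0353 and a limma adjusted p of 0.314, so the knockdown itself did not pass the threshold. Its other target had a log2 change of -0.19 ± 0.33. Image names stored inside the array files did not carry the replicate numbers of the labels on all arrays, so groups were taken from the labels and replicate numbers were used as names. Of the markers of the labelled cell type, all 7 measured general neuron genes were at 100 or more on all 4 arrays, but of 8 measured sympathoadrenal genes only 2 were. All 6 measured forebrain neuron markers and all 4 measured red cell markers were at 100 or more on every array. Neurod2, a forebrain transcription factor, read 4894 to 9423, and Hbb-b1, a haemoglobin gene, 7273 to 23472. The identity of the samples as N2a cells alone is therefore in doubt, which bears on every value given here.

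Before single genes, the counts give the frame. No member passed an adjusted p of 0.05 in limma's test with Benjamini-Hochberg adjustment over 24171 genes, where 0.0372% of all genes passed as higher with Men1 siRNA and 0.352% as lower. At an unadjusted p under 0.05, 4 of the 38 measured members were higher and 4 lower, beside 6.47% and 7.74% of all genes. Both Men1 siRNA arrays lay above both scramble siRNA arrays for 11 members and below them for 13, and the groups overlapped for 14. Over all genes, 25.8% lay above and 21.7% below. The median log2 change of the members was 0.11 and of all genes 0.06. The median size of a change regardless of sign was 0.48 for the members and 0.42 for all genes. The count of 8 members at an unadjusted p under 0.05 was 5 without scramble siRNA replicate 1 and 4 without Men1 siRNA replicate 1. A permutation of 2 arrays against 2 has a smallest two-sided exact p of 0.33, so only limma's test, which pools the spread over genes, is given.

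**Figure D1:**
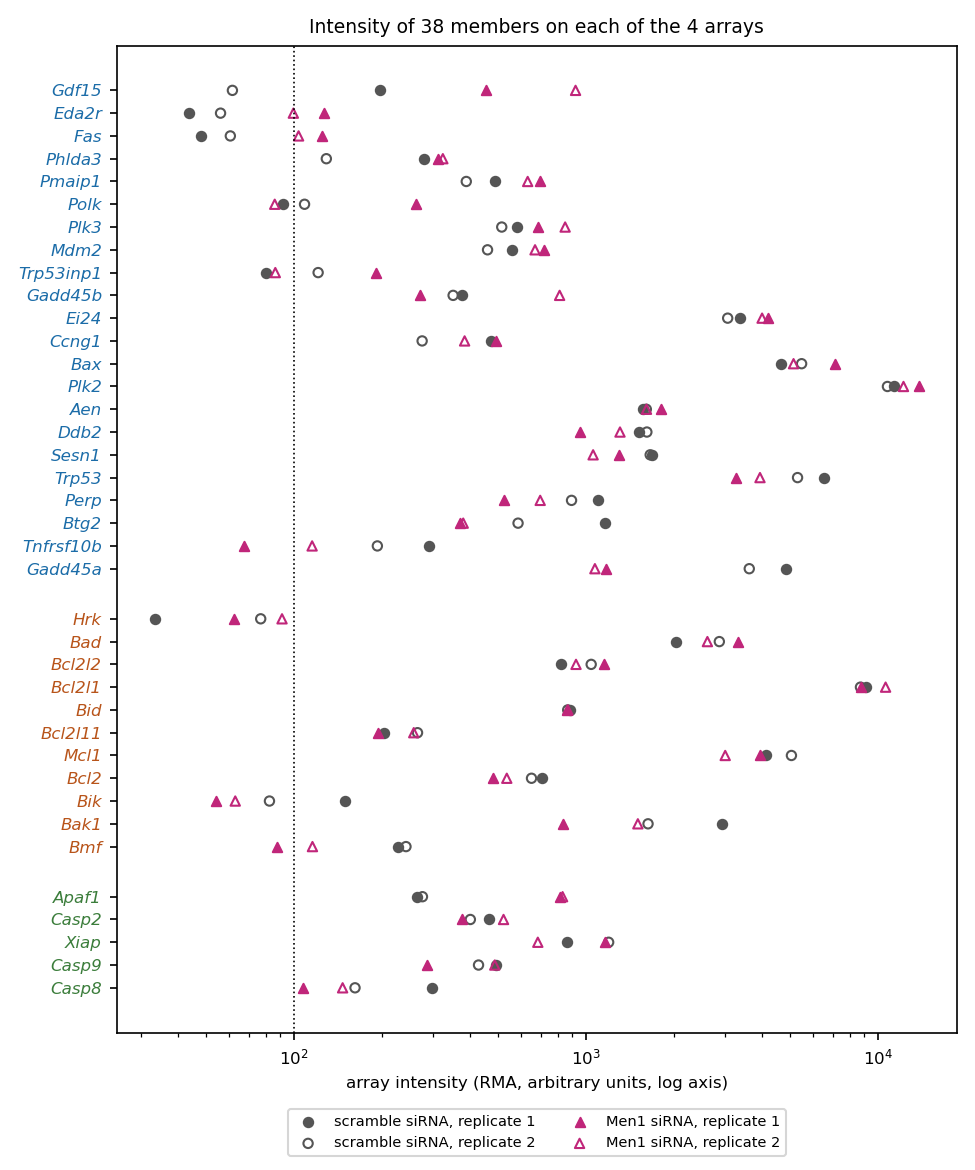
Intensity (log axis, arbitrary units) of the 38 measured members on each array, with circles for scramble siRNA, triangles for Men1 siRNA, filled marks for replicate 1 and open marks for replicate 2. The dotted line is the intensity of 100 taken as well above background, and Gadd45a and Apaf1 show the clear gaps between groups that the values 4845, 3628, 1169 and 1074, and 263.4, 275.7, 813.0 and 832.4 describe.

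The 3 groups of genes were described by their counts and medians. Over all 24171 genes, 13162 had a positive and 11009 a negative log2 change. Of all genes, 25.8% lay wholly above the controls and 21.7% wholly below. Of the 22 measured p53 genes, 15 had a positive and 7 a negative log2 change, with a median of 0.31 and a mean of 0.13. Both Men1 siRNA arrays were above the controls for 10 of them and below for 7. The spread of that median between replicate arrays was 0.123 (SD), and the median was 0.06 without Men1 siRNA replicate 1. Of the 11 other Bcl2 family genes, 4 had a positive and 7 a negative change, none lay wholly above the controls and 5 lay wholly below. Their median was -0.05, but it was 0.04 after quantile normalization and 0.00 after median centring. It was -0.24 without scramble siRNA replicate 1 and -0.22 without Men1 siRNA replicate 2. Bax (0.26, overlapping) and Pmaip1 (0.60, wholly above the controls) also belong to the family but were counted with the p53 genes. The counts and medians of both groups thus depend on that assignment. The 5 caspase and apoptosome genes had a median of -0.19, which became 0.08 without Men1 siRNA replicate 1, and a mean of 0.07. Median and mean differ in sign there, and Apaf1 was the only gene of the group that lay wholly above the controls. These are descriptions of lists, and no difference between the lists was tested.

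**Figure D2:**
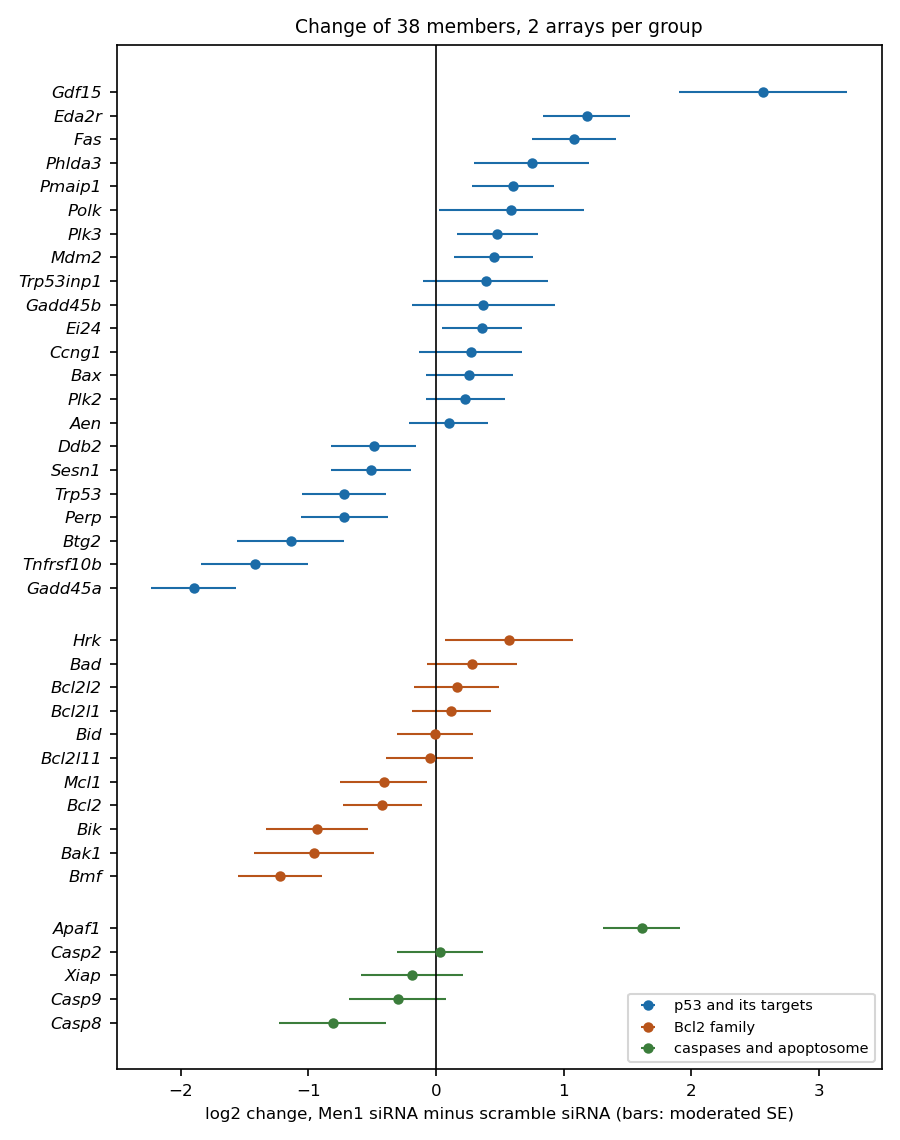
Log2 change (Men1 siRNA minus scramble siRNA) of each of the 38 measured members, with bars for limma's moderated standard error and colours for the 3 groups. The p53 genes range from -1.90 (Gadd45a) to 2.56 (Gdf15), and Apaf1 at 1.61 stands apart from the other 4 genes of its group, which lie between -0.81 and 0.03.

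Promoters were searched for the consensus decamer of p53, the unit of which a p53 response element holds a pair. Windows from 250 bases before to 50 bases after the start, from RefSeq on build GRCm38.p6, were found for 33 of the 38 measured members. The decamer, which reads the same on both strands, was in a window of 10 of these 33 genes (30.3%), beside 9.55% of all 27025 genes in the table. A gene counted if any of its windows held a decamer. By window, the shares were 23.4% of the 47 member windows counted and 8.36% of all 32851. The list was made up largely of known p53 targets, so these shares are no test. A pair of decamers with a spacer of at most 13 bases was in none of the 33 and in 0.074% of all genes. By group, 9 of 18 p53 genes (50%), 1 of 10 other Bcl2 family genes (10%, Bmf) and 0 of 5 caspase and apoptosome genes held a decamer. Bax, also of the Bcl2 family, held a decamer and was counted with the p53 genes. The 9 p53 genes with a decamer included 6 with a positive and 3 with a negative log2 change. Known p53 elements of many targets lie outside such windows, and a match is a description of letters, not a site.

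The upstream 250 bases are shown for Gadd45a and Trp53, which had negative changes at every target, for Ei24, which had positive changes at both targets, and for Mdm2, whose targets were opposed. The decamer is in capitals, and each runs 5′ to 3′ on the gene's strand. They lie at chr6:67037408-67037657 on the minus strand (Gadd45a), chr11:69580109-69580358 on the plus strand (Trp53), chr9:36797335-36797584 on the minus strand (Ei24) and chr10:117710759-117711008 on the minus strand (Mdm2) of GRCm38.p6. The first base of the decamer is 40, 75, 10 and 186 bases before the start, in that order.
Gadd45a: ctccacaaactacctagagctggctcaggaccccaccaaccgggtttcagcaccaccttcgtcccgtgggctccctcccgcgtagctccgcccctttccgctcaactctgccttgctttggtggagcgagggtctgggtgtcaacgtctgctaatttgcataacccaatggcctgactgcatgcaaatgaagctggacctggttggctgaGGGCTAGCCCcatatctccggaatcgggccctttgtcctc
Trp53: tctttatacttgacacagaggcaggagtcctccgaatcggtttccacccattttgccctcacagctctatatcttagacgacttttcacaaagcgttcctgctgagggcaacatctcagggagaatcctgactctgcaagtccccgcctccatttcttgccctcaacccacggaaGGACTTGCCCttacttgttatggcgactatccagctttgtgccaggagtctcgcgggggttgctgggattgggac
Ei24: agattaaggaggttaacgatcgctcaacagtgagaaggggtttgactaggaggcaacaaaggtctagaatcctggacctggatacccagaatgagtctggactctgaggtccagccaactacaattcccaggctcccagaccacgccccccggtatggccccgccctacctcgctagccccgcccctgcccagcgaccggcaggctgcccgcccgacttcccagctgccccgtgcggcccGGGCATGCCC
Mdm2: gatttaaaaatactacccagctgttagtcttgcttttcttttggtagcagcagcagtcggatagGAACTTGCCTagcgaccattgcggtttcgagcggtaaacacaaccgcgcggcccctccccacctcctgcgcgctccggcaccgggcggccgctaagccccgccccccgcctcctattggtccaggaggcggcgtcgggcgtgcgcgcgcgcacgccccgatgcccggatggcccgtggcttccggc
The 4 genes were picked for these decamers and signs, so the windows are an illustration only.

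Trp53 encodes p53 (NCBI gene 22059, chr11:69393889-69405375 on mouse build MM9). Its brightest target read 6557 and 5309 on the control arrays and 3272 and 3948 after Men1 siRNA. Both Men1 siRNA arrays were lower, at a fold of 0.609 and a log2 change of -0.72 ± 0.33 (limma adjusted p = 0.398). Both other targets of Trp53 were lower with Men1 siRNA too. The first read 1560 and 1289 against 821.4 and 615.4, a fold of 0.501, and the second read 1237 and 1057 against 853.6 and 1027, a change of -0.29 ± 0.34. All 3 Trp53 targets thus had separate groups and the same sign, and Trp53 was the only member with several bright targets that were all lower.

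Mdm2 encodes the ligase that marks p53 for destruction and is itself a p53 target, so that it closes a feedback loop. Its brightest target read 558.5 and 460.6 on the control arrays and 717.1 and 669.9 after Men1 siRNA, a log2 change of 0.45 ± 0.31 (limma adjusted p = 0.562). A nearly as bright other target read 606.3 and 577.5 against 509.7 and 511.2, a change of -0.21 ± 0.32. The groups did not overlap at either target, yet the directions were opposite, so no direction can be given for the gene.

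Gadd45a, a stress sensor that binds the replication clamp and is switched on by p53 after DNA damage, had the smallest p of all members. Its only target (NCBI gene 13197, chr6:66985093-66987380 on MM9) read 4845 and 3628 on the control arrays and 1169 and 1074 after Men1 siRNA. The control arrays were far above both others. The fold was 0.267, with a log2 change of -1.90 ± 0.33, an unadjusted p of 0.00148 and a limma adjusted p of 0.104. Its unadjusted p stayed under 0.05 in 16 of 16 other ways of processing the data, with a log2 change between -2.11 and -1.70. Its adjusted p ranged from 0.00268 to 0.455 over them.

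The related Gadd45b, a stress gene of the same family, read 378.0 and 351.1 on the control arrays and 271.4 and 813.2 after Men1 siRNA. Its groups overlapped, and its log2 change of 0.37 ± 0.56 came from 1 array: it was -0.42 without Men1 siRNA replicate 2. Btg2, which restrains proliferation, read 1162 and 585.9 against 370.8 and 380.2. Both Men1 siRNA arrays were lower, at a fold of 0.455, a log2 change of -1.14 ± 0.42 and a limma adjusted p of 0.325 (unadjusted 0.0388). The 2 control arrays of Btg2 lay further apart from each other than scramble siRNA replicate 2 lay from the Men1 siRNA arrays.

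The other genes of growth control and repair had smaller changes. Sesn1, a sestrin that restrains growth signalling under stress, read 1690 and 1661 against 1302 and 1059, and Ddb2, which recognises ultraviolet damage in DNA, read 1525 and 1618 against 958.3 and 1309. Both lay wholly below the controls, with log2 changes of -0.51 ± 0.31 and -0.49 ± 0.33, and limma adjusted p of 0.513 and 0.552. Ddb2 had another target at 771.9 and 880.5 against 488.4 and 126.9, and a further target at 1095 and 1373 against 1369 and 1280, so that its bright targets did not share a sign. Plk3 and Plk2, stress-responsive polo-like kinases, lay wholly above the controls. Plk3 read 583.2 and 515.2 against 687.5 and 849.3 (log2 change 0.48 ± 0.32), and Plk2 read 11330 and 10786 against 13812 and 12241 (0.23 ± 0.31). Neither passed limma's test, at adjusted p of 0.546 and 0.763. Ccng1, an atypical cyclin, read 471.9 and 275.0 against 493.0 and 384.4, and Polk, a polymerase that copies past damaged bases, read 91.5 and 108.8 against 261.6 and 86.0. Both overlapped between groups, and both log2 changes (0.27 ± 0.40 and 0.59 ± 0.57) turned sign when 1 array was left out. Polk also turned sign, to -0.07, when all of its targets were averaged.

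Gdf15 encodes a secreted stress cytokine of the TGF-beta superfamily and had the largest change of the members. Its brightest target (NCBI gene 23886, chr8:73153291-73156355 on MM9) read 196.6 and 61.6 on the control arrays and 454.9 and 922.1 after Men1 siRNA. Both Men1 siRNA arrays were higher, but the arrays of each group also differed widely from each other, and scramble siRNA replicate 2 was under 100. The log2 change was 2.56 ± 0.66, a fold of 5.89, with an unadjusted p of 0.0094 and a limma adjusted p of 0.208. Its size rests on single arrays: the log2 change was 1.72 without scramble siRNA replicate 2, 2.05 without Men1 siRNA replicate 2, 3.07 without Men1 siRNA replicate 1 and 3.39 without scramble siRNA replicate 1. The other target of Gdf15 read 146.4 and 38.6 against 231.2 and 594.7, with the same order of the 4 arrays and a log2 change of 2.30 ± 0.75.

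The 3 receptors of the list, members of the TNF receptor superfamily, did not share a direction. Fas, the receptor for Fas ligand, read 48.1 and 60.6 against 125.0 and 103.8, and Eda2r, a receptor for ectodysplasin-A2, read 43.9 and 56.1 against 127.2 and 99.6. Both were higher on both Men1 siRNA arrays and under 100 on both controls, which gives at least 1.14-fold for Fas and at least 1.13-fold for Eda2r. The limma adjusted p were 0.259 and 0.239. Tnfrsf10b, the mouse death receptor for Trail, read 289.5 and 193.2 against 67.3 and 115.5. It was lower on both Men1 siRNA arrays, at a fold of 0.373 and a log2 change of -1.42 ± 0.42 (limma adjusted p = 0.25), with Men1 siRNA replicate 1 under 100. Fas and Eda2r lay so close to background that both dropped out when dim genes were left out. Their other targets were under 100 on all arrays and had negative changes, -0.17 for Fas and -0.66 and -0.08 for Eda2r. With targets averaged, the log2 change was 0.45 for Fas and 0.15 for Eda2r.

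The other targets that promote death followed no single direction. Perp, a membrane protein of cell junctions and a p53 effector, read 1102 and 893.3 against 523.2 and 697.7, lower on both Men1 siRNA arrays (log2 change -0.72 ± 0.34, limma adjusted p = 0.414). Phlda3, which restrains the kinase Akt, read 278.8 and 129.2 against 312.8 and 323.8. Its change of 0.75 ± 0.45 rested largely on scramble siRNA replicate 2, since the other control array lay close to the Men1 siRNA arrays. Ei24, a p53-induced protein of the endoplasmic reticulum, read 3366 and 3060 against 4203 and 4014 at its brightest target. Its other target read 1798 and 2363 against 3771 and 3481. Both targets lay wholly above the controls, with log2 changes of 0.36 ± 0.31 and 0.81 ± 0.34. Aen, a nuclease that fragments DNA during apoptosis, read 1569 and 1611 against 1810 and 1613, so that 2 of its 4 arrays were nearly equal across groups, and its log2 change was 0.10 ± 0.31. Trp53inp1, a nuclear cofactor of p53, read 80.1 and 121.1 against 191.6 and 86.4, and overlapped.

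The survival proteins of the Bcl2 family protect mitochondria from Bax and Bak1. Bcl2 itself read 708.2 and 651.5 on the control arrays and 480.7 and 536.1 after Men1 siRNA, and Mcl1, a short-lived member, read 4144 and 5059 against 3935 and 3001. Both lay wholly below the controls at these targets, with log2 changes of -0.42 ± 0.31 and -0.41 ± 0.34 and limma adjusted p of 0.583 and 0.617. The other target of Bcl2, at 84.1 and 181.2 against 99.1 and 171.3, overlapped, with a change of 0.08 ± 0.51. With its targets averaged, the change of Bcl2 was -0.17. A second bright target of Mcl1, at 2304 and 2840 against 2383 and 2857, had a change of 0.03 ± 0.34. Its remaining target, at 332.0 and 194.0 against 185.3 and 198.6, overlapped, with a change of -0.40 ± 0.39. Bcl2l1, the gene of Bcl-xL, read 9115 and 8719 against 8771 and 10630, and Bcl2l2, the gene of Bcl-w, read 819.3 and 1043 against 1158 and 925.4. Both overlapped between groups. All 4 survival genes were at 100 or more on every array, and their median log2 change was -0.15.

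The effectors Bax and Bak1 form the pores in the outer mitochondrial membrane. Bax, a p53 target, read 4650 and 5482 against 7151 and 5144, and overlapped (log2 change 0.26 ± 0.34). Its other bright targets had changes of 0.47 ± 0.33 and -0.06 ± 0.33. Bak1 read 2927 and 1633 against 837.4 and 1507, lower on both Men1 siRNA arrays at a fold of 0.514 and a log2 change of -0.96 ± 0.47 (limma adjusted p = 0.424). For Bak1, scramble siRNA replicate 2 and Men1 siRNA replicate 2 were nearly equal, so the groups were apart by much less than the spread within each.

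Of the BH3-only genes, which sense stress and inhibit the survival proteins, 7 of 8 were measured. Bmf (NCBI gene 171543, chr2:118354492-118375379 on MM9), which responds to loss of attachment, read 228.2 and 242.1 on the control arrays and 87.4 and 115.8 after Men1 siRNA. Both Men1 siRNA arrays were lower, and replicate 1 was under 100. The fold was 0.428, with a log2 change of -1.22 ± 0.33, an unadjusted p of 0.0109 and a limma adjusted p of 0.217. Bik read 149.3 and 82.5 against 54.2 and 63.0, at least 1.11-fold lower with both Men1 siRNA arrays under 100. Pmaip1, the gene of Noxa and a p53 target, read 488.9 and 389.5 against 694.5 and 632.1, higher on both Men1 siRNA arrays at a log2 change of 0.60 ± 0.32 (limma adjusted p = 0.454). It was the only BH3-only gene whose groups were apart in that direction.

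The other BH3-only genes overlapped between groups. Bid, which caspase-8 cleaves to link death receptors to mitochondria, was the steadiest, at 882.2 and 866.7 against 864.4 and 867.7. Its log2 change of -0.01 ± 0.30 became 0.05 after quantile normalization. Bad, which growth factor signalling silences, read 2039 and 2865 against 3315 and 2608. Bcl2l11, the gene of Bim, read 203.4 and 265.2 against 194.9 and 257.4, and its change of -0.05 ± 0.34 became 0.04 after quantile normalization. Hrk, a neuronal BH3-only gene, was under 100 on all 4 arrays, between 33.4 and 91.1, and no fold is given. The median of the 7 measured BH3-only genes was -0.01, with 3 positive and 4 negative changes.

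Apaf1, the scaffold of the apoptosome, had the second smallest p of the members. Its brightest target (NCBI gene 11783, chr10:90452055-90545488 on MM9) read 263.4 and 275.7 on the control arrays and 813.0 and 832.4 after Men1 siRNA. The replicates nearly coincided within each group, and the groups were far apart. The fold was 3.05, with a log2 change of 1.61 ± 0.30, an unadjusted p of 0.00224 and a limma adjusted p of 0.123. Over the other ways of processing, its adjusted p ranged from 0.0232 to 0.478, and its log2 change fell to 0.73 when all 4 of its targets were averaged. The other targets read lower. The first read 83.6 and 169.1 against 245.4 and 207.0, a log2 change of 0.92 ± 0.44, and the second read 87.5 and 156.7 against 170.2 and 232.5, a change of 0.76 ± 0.42. Both also lay wholly above the controls, while the last target of Apaf1 was under 100 on all arrays.

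At their brightest targets, none of the caspases that start the cascade lay wholly above the controls as Apaf1 did. Casp9, which the apoptosome activates, read 493.3 and 429.0 against 285.8 and 487.6 and overlapped, with a log2 change of -0.30 ± 0.38 that became 0.37 when its 3 targets were averaged. Another bright target of Casp9 read 117.8 and 72.1 against 172.9 and 285.7. That target lay wholly above the controls, with a log2 change of 1.27 ± 0.43. Casp8, which death receptors activate, read 298.2 and 162.0 against 107.3 and 146.9. It was lower on both Men1 siRNA arrays, at a log2 change of -0.81 ± 0.42 (limma adjusted p = 0.449). Casp2, an initiator linked to DNA damage, read 466.1 and 402.2 against 375.9 and 522.5, and overlapped. Xiap, the inhibitor of caspases, read 864.7 and 1197 against 1165 and 684.7, and its bright targets did not share a sign.

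**Figure D3:**
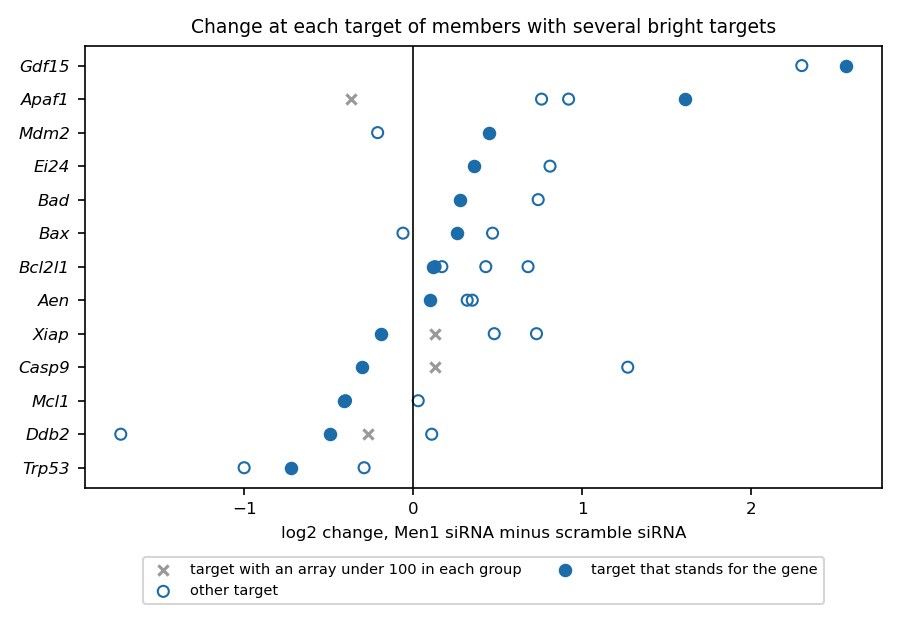
Log2 change at each target of the 13 members with more than 1 bright target, where filled circles are the target that stands for the gene, open circles other targets, and crosses targets with an array under 100 in each group. For 6 genes all bright targets are positive, for Trp53 all are negative, and for 6 (Bax, Casp9, Ddb2, Mcl1, Mdm2 and Xiap) they lie on both sides of 0. Some targets of Gdf15, Apaf1 and Casp9 are bright only through the Men1 siRNA arrays, which favours a positive sign.

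Where a gene had several bright targets, their changes did not always share a sign. Of the 38 measured members, 15 had 1 target and 23 had more. Bright targets, with both arrays of at least 1 group at 100 or more, numbered 57, and 13 members had more than 1. In 6 of the 13, Gdf15, Apaf1, Ei24, Bad, Bcl2l1 and Aen, all bright targets had positive changes, and in 1, Trp53, all were negative. In the other 6 the signs were mixed, as for Mdm2, Mcl1 and Ddb2, described with their values. Some of these changes were small beside their SE, such as -0.06 ± 0.33 for a target of Bax and 0.03 ± 0.34 for one of Mcl1. The share of mixed signs over all genes was not counted. A target can be bright through 1 group alone, and the rule then favours a change towards that group. Both Gdf15 targets, a dimmer Casp9 target and all bright Apaf1 targets but the brightest were bright only through the Men1 siRNA arrays. Their positive signs thus follow in part from the rule. The Apaf1 target under 100 on all arrays had a change of -0.37 ± 0.44.

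Other genes of the same pathways were counted from lists chosen with results of these data known, and no difference from the members was tested. Of 34 measured genes of the p53 pathway beyond the members, none passed the adjusted threshold in limma, 1 was higher and 4 lower at an unadjusted p under 0.05, and the median log2 change was 0.09. Over all genes, 6.47% were higher and 7.74% lower at that unadjusted p, and the median was 0.06. Cd82, a membrane protein that p53 induces, read 2856 and 2079 against 450.2 and 886.2, a log2 change of -1.95 ± 0.44 (limma adjusted p = 0.17). Igfbp3, which binds insulin-like growth factors, had a change of -1.40 ± 0.35 (adjusted p = 0.196). Of the relatives of p53, Trp73 read 51.3 and 72.3 against 329.4 and 145.4, at least 2.19-fold higher (adjusted p = 0.214), and Trp63 was at least 1.51-fold lower (adjusted p = 0.374). Cdkn1a, the p53 target that halts the cell cycle, was named after its values were seen: it read 1735 and 1605 against 2511 and 2754, a change of 0.66 ± 0.31 (adjusted p = 0.408).

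Of 30 other genes of the death machinery, none passed the adjusted threshold in limma, 1 was higher and 5 lower at an unadjusted p under 0.05, and the median log2 change was -0.21. The shares over all genes at that unadjusted p were 6.47% higher and 7.74% lower. The lower genes of this list included Birc3, an inhibitor of apoptosis, at -1.84 ± 0.31 (limma adjusted p = 0.0973), and 2 genes of death receptor signalling. These were Tnfrsf1a, the TNF receptor, at -2.01 ± 0.46, and Ripk1, its adaptor kinase, at -2.20 ± 0.60 (limma adjusted p = 0.175 and 0.221). Tnfrsf1a read 1900 and 902.7 against 384.5 and 274.0, so its control arrays differed widely. Ripk1 read 475.0 and 366.9 against 162.7 and 50.7, with Men1 siRNA replicate 2 under 100.

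Markers of 3 other cell types, epithelium, fibroblasts and endothelium, were much lower on the Men1 siRNA arrays. Among all genes, 21.7% lay wholly below the controls and 0.352% passed the adjusted threshold as lower. Of 11 epithelial markers, all 11 lay wholly below the controls, 4 past the adjusted threshold in limma, with a median log2 change of -3.67. Their summed intensity was 34633 and 21247 on the control arrays and 1484 and 2614 after Men1 siRNA, where Cldn3 and Cldn4 were under 100 on both arrays. Of 12 fibroblast markers, 11 lay below the controls, 4 past the threshold, with sums of 62294 and 57715 against 9764 and 9518, and only Fap was under 100 on all arrays. Of 8 endothelial markers, all 8 lay below, 2 past the threshold, with sums of 10153 and 6414 against 1625 and 1621, where Eng, Emcn, Flt1 and Tek were under 100 on both Men1 siRNA arrays. The 7 general neuron markers all had positive changes, with a median of 0.46. So did the 6 forebrain neuron markers (median 0.70) and the 4 red cell markers (median 0.90), whose sums were 25581 and 13217 against 33361 and 39830. The medians were 0.22 for 8 glial markers and -0.04 for 10 immune cell markers, of which 5 had positive and 5 negative changes. In RNA from whole samples, fewer cells of a type and less RNA per cell cannot be told apart. Since the identity of the samples is in doubt, a difference between the groups in their source cannot be told apart from an effect of the siRNA either. The part of these markers in the members' values was not tested.

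**Figure D4:**
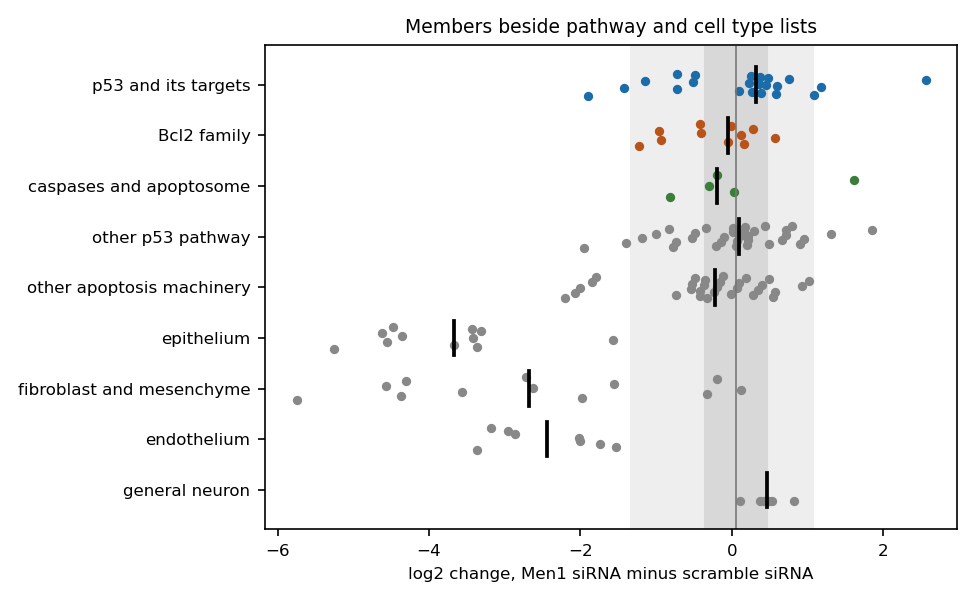
Log2 change (Men1 siRNA minus scramble siRNA) of each gene of the 3 member groups, of the other pathway genes and of cell type marker lists, 1 dot per gene, with black bars for medians and shaded bands for the middle 50% and 90% of all genes. The epithelial, fibroblast and endothelial medians of -3.67, -2.68 and -2.44 lie outside both bands, and the 3 member medians are 0.31, -0.05 and -0.19. The bands describe single genes, so a median's place in them is no test.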

How the data were processed

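Total RNA of 4 samples, 2 with scramble siRNA and 2 with Men1 siRNA, was hybridised to single-colour arrays. Per the file headers, the authors deposited 1 linear intensity per target, made by robust multi-array averaging (RMA). Symbols and MM9 coordinates came from the array annotation. The design text speaks of Agilent, but labelling protocol and file format are those of NimbleGen, as which the files were read. The number of arrays limits precision.

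Intensities were log2-transformed without pseudocount or renormalization. Each of 24171 genes was represented by its brightest target (mean log2 over the 4 arrays). The test was limma 3.58.1 in R 4.3.3 (lmFit, eBayes), group only, two-sided, Benjamini-Hochberg over all genes, threshold 0.05; total degrees of freedom were 5.59. Values of single targets come from a fit of all targets. Folds are 2 to the log2 change; where both arrays of a group were under 100, "at least" folds set 100, or the array's own value if higher, as the dim level. Summaries used pandas 2.3.3 and numpy 2.4.6 in Python 3.11.15, figures matplotlib 3.10.9, and the fit was tested on simulated data.

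Members and lists were chosen with earlier results of these data known. All members are named, and of the 2 further pathway lists genes among the 6 with the smallest p, besides Cdkn1a, which ranked 8 and was chosen after its values were seen. Pairing by replicate number is not settled. Deviations of arrays with the same number in the labels correlated at -0.175, and the authors' value table numbers the scramble siRNA arrays the other way round, which gives the crossed pairs, with the opposite sign. Alternatives were other normalizations, filters, target rules, priors, left-out arrays, blocks and the authors' value table. Some genes of these lists are not reported here by name.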

Additional observations from a re-analysis of the deposited data

How the results depend on the processing

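Of all genes, 94 passed the adjusted threshold. The count was 0 without any 1 array (in limma, where the unadjusted p was under 0.05 for 2105 to 3357 genes), which leaves the lone array of a group assumed to vary like the other group. It was 69 with the replicate number as a block, and 0 with the numbers crossed, a pairing chosen after seeing the data that is also the value table's own numbering (3980 genes at an unadjusted p under 0.05). It was 359 with dim genes left out, 711 with a prior that follows intensity, 252 with a pseudocount of 32, 8 with a floor at 100 and 418 in the value table. The block left the members' count at an unadjusted p under 0.05 at 8, and the crossed block made it 10. Members past the adjusted threshold numbered 0, and 1 (Gadd45a) with dim genes left out or a pseudocount of 32, and 2 (Gadd45a and Apaf1) with the prior that follows intensity or in the value table. Members at an unadjusted p under 0.05 ranged from 4 to 10 without 1 array, and were 4 with all targets of a gene averaged. The p53 median ranged from 0.06 to 0.36 without 1 array and was 0.19 with targets averaged. The Bcl2 family median ranged from -0.24 to -0.01 without 1 array, and was 0.04 with quantile normalization and 0.00 with median centring. The caspase and apoptosome median ranged from -0.20 to 0.08 without 1 array, and was 0.29 with targets averaged. Without 1 array, log2 changes spanned both signs for Ccng1 (-0.12 to 0.66), Gadd45b (-0.42 to 1.16), Trp53inp1 (-0.19 to 0.96), Polk (-0.21 to 1.39), Bcl2l1 (-0.02 to 0.25), Bcl2l2 (-0.01 to 0.34), Bcl2l11 (-0.25 to 0.15), Hrk (-0.03 to 1.18), Casp2 (-0.20 to 0.27), Casp9 (-0.69 to 0.08) and Xiap (-0.57 to 0.20). With targets averaged, the change turned to -0.07 for Polk, 0.08 for Bcl2l11, 0.37 for Casp9 and 0.29 for Xiap. With quantile normalization and with median centring it was 0.05 and 0.04 for Bid, and 0.04 and 0.00 for Bcl2l11. The cause of these shifts was not tested. No other member turned sign under any alternative run. A floor at 100 gave no value for Hrk, and a slide or scan block and another background correction were not run, since the files name no slide and hold summarised values. Members under or near 100, such as Hrk, Fas, Eda2r and Bik, are limited by background.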

Other observations

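Single targets that do not stand for their gene also differed between groups, and these were chosen after their values were seen. A dimmer target of Casp9 read 117.8 and 72.1 on the control arrays and 172.9 and 285.7 after Men1 siRNA, a log2 change of 1.27 ± 0.43 (limma adjusted p = 0.307), against -0.30 at its brightest target. A target of Bcl2l11 read 43.3 and 35.0 against 78.9 and 126.5, so only 1 of its 4 arrays reached 100, and a target of Polk read 140.7 and 183.1 against 95.2 and 64.6, a change of -1.03 ± 0.37 (limma adjusted p = 0.327). Of the 5 targets of Bcl2l1, all had positive changes, from 0.12 to 0.68. The last read 6521 and 3986 against 8096 and 8196, wholly above the controls, while the brightest overlapped.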
